A study of Mus musculus with 24 samples.

Results

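The genotype difference in the aortic response to infusion on a high-salt drink was examined as a difference of differences: the change with infusion in IL-17 knockout mice minus the change with infusion in wild-type mice. All 12 arrays that enter it came from mice drinking 1% NaCl, and they are 12 of the 24 arrays of the series. The 4 groups were IL-17 knockout mice on salt infused with BAPN and angiotensin II, IL-17 knockout mice on salt given vehicle, wild-type mice on salt given the same infusion, and wild-type mice on salt given vehicle, with 3 biological replicates in each per the series design. All mice were C57BL/6 on normal chow, salt was given before and during the infusion, and the infusion lasted 3 days. The other 12 arrays held the same genotypes and infusions on water without added salt. They entered the comparison on salt only through the shared estimate of the spread, the filter on dim probes and the choice of probe per gene. The agent label of the infused samples names BAPN alone, while the design names BAPN with angiotensin II, and no group received either agent by itself. The labels do not say which IL-17 gene was deleted or which part of it, and give no age, sex or dose. The tissue label is aorta while the extraction protocol speaks of cells, and nothing says whether an array held 1 aorta or a pool.

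BAPN blocks lysyl oxidase, the enzyme that crosslinks elastin and collagen, and angiotensin II raises blood pressure and drives inflammation of the vessel wall, and the combination is used to weaken the aorta until it dissects. Interleukin-17A and interleukin-17F bind the receptor pair IL-17RA and IL-17RC, whose adaptor Act1 activates NF-kappaB and stabilises messenger RNAs of cytokines and chemokines such as Il6 and Ccl2. A difference of differences asks whether that infusion changes a gene more, less or in the other direction in mice without IL-17, and it does not ask whether the genotypes differ in level. Each value below is log2 processed signal minus the array's 75th percentile, so 0 is the signal of a fairly bright probe, and a gene is represented by its brightest probe. Levels are compared between arrays for 1 probe and not between probes.

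The smooth muscle genes Myh11, Acta2 and Tagln were well above background on all 12 arrays. The probes for Il17a and Il17f were well above background on 0 of 24 arrays, with levels from -7.67 to -5.60 for Il17a and from -7.41 to -5.42 for Il17f, so neither gene checks the genotype label. The arrays were read from 4 slides, and no slide held both genotypes. The infused knockout arrays were all on slide 2 and the knockout arrays on salt alone all on slide 1. Wild-type arrays on salt alone were all on slide 3, which also held infused wild-type replicates 1 and 2, while infused wild-type replicate 3 was on slide 4. Within these 4 groups the knockout response, and with it the genotype difference in response, cannot be told apart from the change of slide. Slide could be fitted as a block over all 24 arrays, but in each genotype that fit rests on 1 array. In the knockout it is replicate 3 of infusion on water, which was on slide 2 apart from the other replicates of its group. That array lay farthest of all arrays from its group mean. In the wild type it is infused replicate 3 on salt, the only array of its group on slide 4. The 75th percentile of the processed signal was 615.5 to 771.6 on infused knockout arrays, 461.6 to 533.3 on knockout arrays on salt alone, 310.1 to 437.5 on infused wild-type arrays and 325.8 to 360.7 on wild-type arrays on salt alone. The number of arrays limits the precision: the median standard error of a genotype difference was 0.293 on the log2 scale.

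A large share of the genes differed between infused and vehicle arrays in each genotype, largely in the same direction. In the knockout these arrays also differ in slide, so its calls below cannot be credited to the infusion alone. In the knockout 5889 of 23360 genes tested passed an adjusted p of 0.05 (25.2%), of which 3100 were higher with infusion and 2789 lower. In the wild type 7685 genes passed (32.9%), of which 3810 were higher and 3875 lower. The knockout count fell to between 3597 and 3920 without infused knockout replicate 1 or 3 or knockout replicate 1 on salt alone, and the wild-type count to 4436 and 5071 without infused wild-type replicate 3 or wild-type replicate 3 on salt alone. Of these, 3995 genes passed in the same direction in both genotypes, which is 67.84% of the knockout calls and 51.98% of the wild-type calls, and 14 passed in opposite directions. The sign of the knockout response matched for 94.2% of the genes called in the wild type. Across genes the 2 responses had a Pearson r of 0.7941 and a Spearman rho of 0.7102, given as a description, since genes are not independent replicates and the infused arrays share slides.

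The 4 groups gave 14 genes whose response differed between the genotypes at an adjusted p of 0.05 by limma with Benjamini-Hochberg adjustment (0.0599% of the genes tested). Of these, 12 had a higher response in the knockout (0.0514%) and 2 a lower one (0.00856%). That split moved with the processing: it was 11 higher and 9 lower with dim values raised to the lowest signal among probes well above background (20 genes), 13 and 10 with no filter on dim probes, 55 and 25 with only the 4 groups in the fit, and 964 and 993 with slide as a block. At an unadjusted p of 0.05, 2110 genes differed (9.03%), 1231 higher (5.27%) and 879 lower (3.76%). The 95% interval reached a median of 0.6143 either side of the estimate, and for 13602 genes (58.23%) the whole interval lay within 1 log2 unit of 0. For the remaining genes a difference of more than 1 log2 unit is not excluded by the interval. Among the 7685 genes called in the wild type, 4549 had an interval within 1 log2 unit (59.19%) and 6 had a called genotype difference. Single arrays decided how many genes passed. The count was 3, 8 and 7 without infused knockout replicate 1, 2 or 3, and 4, 12 and 0 without knockout replicate 1, 2 or 3 on salt alone. It was 9, 6 and 24 without infused wild-type replicate 1, 2 or 3, and 4, 8 and 10 without wild-type replicate 1, 2 or 3 on salt alone. The count of 24 is also the one with the wild-type response taken within slide 3. Without the replicate 3 arrays of infusion on water, which stood apart from their groups, 162 genes passed. With the genes and probes kept as they were, those arrays enter that count only through the shared spread. With slide as a block 1957 genes passed (8.38%), all 14 among them in the same direction. The replicate number as a block gave 17 genes, also with all 14 among them. Within the 4 groups the change of slide in the knockout is part of each of the 14 differences and cannot be told apart from the response.

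**Figure D1:**
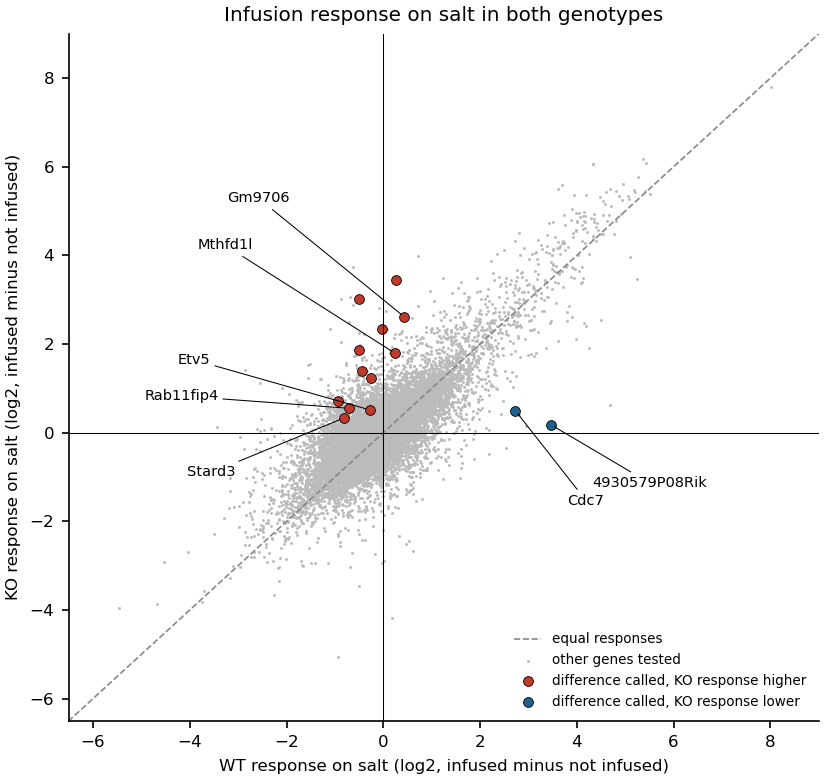
Response to infusion on salt in the knockout and in the wild type, in log2 units, 1 point per gene over the 23360 genes tested. Most genes lie along the diagonal of equal response, and the 14 genes whose responses differed at an adjusted p of 0.05 are marked away from it.

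Of the 14 genes, 7 carry a RefSeq symbol and 7 only a database name and are not named here. Of the 7 with a symbol, 5 were lower in the knockout than in the wild type on salt alone, and with infusion that gap was smaller or had the other sign. The probe of Gm9706, which RefSeq lists as a pseudogene, and that of 4930579P08Rik, a long non-coding RNA gene, gave the largest differences in each direction among the called genes with a symbol. Their sequences are shown because what the probes can bind bears on the reading. The first lies at chr17:46543886-46543945 on the minus strand and the second at chr10:116176754-116176813 on the plus strand (both mm9, per the files), each printed 5′ to 3′. Capitals mark the bases that the Gm9706 probe shares with the probe of Isg15, a ubiquitin-like protein made in response to interferon.
Gm9706 probe: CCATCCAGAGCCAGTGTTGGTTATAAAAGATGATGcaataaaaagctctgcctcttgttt
4930579P08Rik probe: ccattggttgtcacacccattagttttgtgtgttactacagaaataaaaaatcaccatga

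Bases 1 to 35 of the Gm9706 probe are identical to bases 22 to 56 of the Isg15 probe at chr4:155573649-155573708 (mm9). The Gm9706 probe may therefore also read Isg15, which was not tested. A second Isg15 probe, which shares 5 bases in a row with it, gave a genotype difference of 1.37, and the first Isg15 probe 1.49. On salt alone both Isg15 probes read higher in the knockout than in the wild type, while Gm9706 read lower. The second Isg15 probe read -3.38, -3.16 and -3.51 there in the knockout, against -4.27, -4.24 and -4.09 in the wild type. Gm9706 read -0.02, 0.48 and 0.09 in infused knockout aortas, against -2.26, -2.51 and -2.51 in knockout aortas on salt alone. In infused wild-type aortas it read -0.77, -1.19 and -1.40, against -1.42, -1.46 and -1.80 on salt alone. The knockout arrays lay below every wild-type array without infusion and above every one with it. The probe rose 6.11-fold with infusion in the knockout (adjusted p = 6.42e-06), and in the wild type it was 1.35-fold higher (adjusted p = 0.190). The difference of the responses was 2.17 (95% interval 1.42 to 2.93, adjusted p = 0.0246).

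4930579P08Rik went the other way. It read 0.38, 0.87 and 0.79 in infused knockout aortas, against 0.19, 0.80 and 0.49 in knockout aortas on salt alone. It read -0.24, -0.47 and 0.52 in infused wild-type aortas, against -3.57, -2.86 and -4.13 in wild-type aortas on salt alone, which were the only low arrays of the 12. In the wild type it rose 11-fold (adjusted p = 1.73e-05) and in the knockout it was 1.14-fold higher (adjusted p = 0.745). The responses differed by -3.27 (95% interval -4.35 to -2.20, adjusted p = 0.0177). On plain water the wild-type arrays without infusion read -0.99, -1.84 and -0.69, and the genotype difference there was -0.20 (unadjusted p = 0.699).

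Stard3, a sterol transfer protein of late endosomes (probe at chr11:98242252-98242311, mm9), had the smallest p-value among the called genes with a symbol. It read 2.33, 2.26 and 2.18 in infused knockout aortas, against 1.92, 1.94 and 1.92 in knockout aortas on salt alone. It read 2.0, 1.85 and 1.96 in infused wild-type aortas, against 2.72, 2.80 and 2.75 on salt alone. In neither genotype did the infused and vehicle arrays overlap. Stard3 rose 1.26-fold in the knockout (adjusted p = 0.0417) and fell 1.76-fold in the wild type (adjusted p = 0.000104), a difference of 1.15 (95% interval 0.81 to 1.49, adjusted p = 0.0127).

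Etv5, an ETS-family transcription factor (chr16:22381387-22381446, mm9), read 2.57, 2.64 and 2.45 in infused knockout aortas, against 2.14, 2.02 and 1.96 on salt alone. Its wild-type levels were 2.56, 2.51 and 2.50 with infusion, against 2.72, 2.79 and 2.91 on salt alone. With infusion the genotypes overlapped, and on salt alone every knockout array was below every wild-type array. Etv5 rose 1.43-fold in the knockout (adjusted p = 0.000929) and fell 1.22-fold in the wild type (adjusted p = 0.0294). The difference was 0.80 (95% interval 0.52 to 1.08, adjusted p = 0.0246). On plain water it was -0.04.

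Mthfd1l, the mitochondrial enzyme that makes formate in folate metabolism (chr10:6190563-6190622, mm9), read 1.01, 1.01 and 1.28 in infused knockout aortas, against -0.57, -0.75 and -0.74 on salt alone. Its wild-type levels were 1.52, 0.95 and 1.48 with infusion, against 1.21, 0.78 and 1.21 on salt alone. The low arrays were thus the 3 knockout arrays without infusion. It rose 3.45-fold in the knockout (adjusted p = 8.18e-06) and was 1.19-fold higher in the wild type (adjusted p = 0.314), a difference of 1.54 (95% interval 0.98 to 2.09, adjusted p = 0.0292). A second Mthfd1l probe also gave 1.54.

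Rab11fip4, which binds the recycling-endosome regulator Rab11 (chr11:79507455-79507514, mm9), was dim. It read -4.47, -4.67 and -4.23 in infused knockout aortas, against -5.03, -4.72 and -5.26 on salt alone, where it was not well above background on any of the 3 arrays. Its wild-type levels were -3.94, -3.64 and -3.46 with infusion, against -3.03, -2.93 and -2.94 on salt alone. On salt alone it was at least 2.80-fold lower in the knockout than in the wild type. Such a bound sets the dim group at the lowest signal among probes well above background, or at its own signal where that is higher. A bound has no test of its own: the fitted knockout minus wild-type difference there was -2.04 (adjusted p = 4.33e-08). The fitted difference of the responses was 1.27 (95% interval 0.80 to 1.74, adjusted p = 0.0358), and it was 0.72 with dim values raised to that lowest signal. Cdc7, the kinase that fires replication origins (chr5:107398228-107398287, mm9), was also called but missed the detection requirement of the naming rule and is named after its values were seen. It was well above background on 2 infused knockout arrays, 0 knockout arrays on salt alone, 3 infused wild-type arrays and 0 wild-type arrays on salt alone. With infusion Cdc7 was at least 1.80-fold higher in the wild type, with a fitted rise of 6.64-fold (adjusted p = 7.55e-06). Its fitted difference of -2.24 (adjusted p = 0.0177) became -1.02 with dim values raised.

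**Figure D2:**
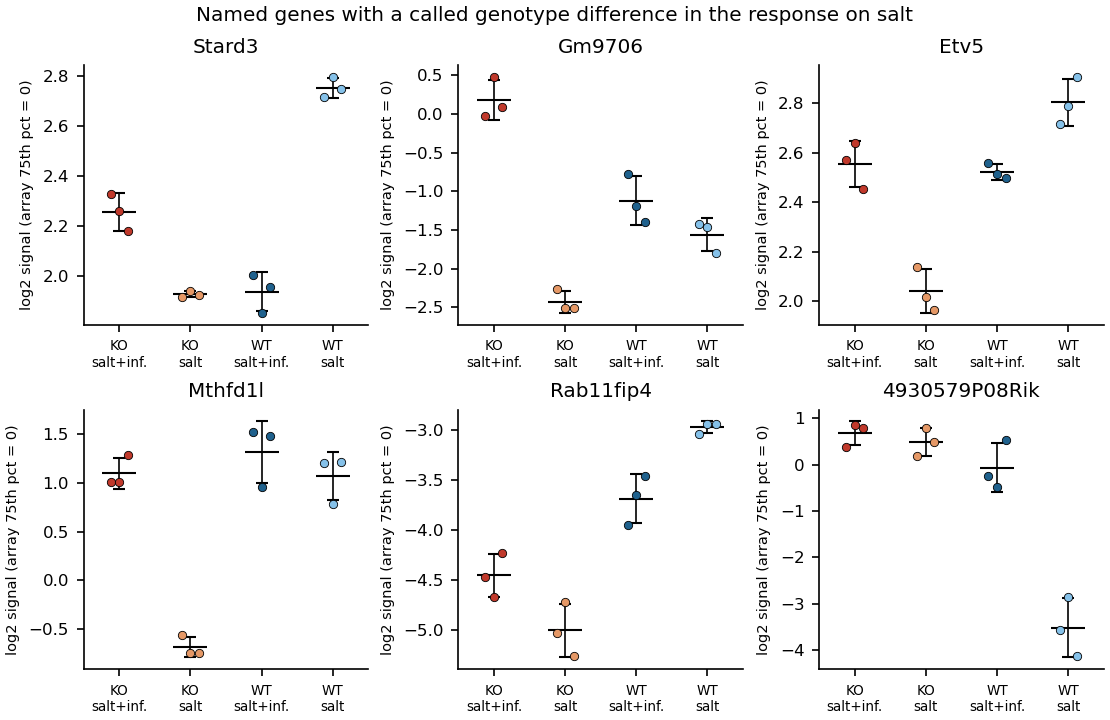
Level of the named called genes on each of the 12 arrays on salt, as log2 signal minus the array's 75th percentile, with 1 panel per gene, points for arrays, long lines for group means and error bars for the SD (n = 3). Infused knockout, knockout on salt alone, infused wild-type and wild-type arrays on salt alone run from left to right, and in Gm9706 and Mthfd1l the knockout arrays on salt alone are the lowest group.

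The threshold was missed by the other 10 genes of smallest p with a higher response in the knockout and by the other 14 with a lower one. Closest on the higher side was Mx2, a GTPase induced by interferon, with a difference of 1.45 (95% interval 0.88 to 2.01, adjusted p = 0.0502). It read -1.26, -0.72 and -1.03 in infused knockout aortas, against -2.12, -1.98 and -1.80 on salt alone. Its wild-type levels were -1.64, -1.62 and -2.12 with infusion, against -1.32, -1.43 and -1.18 on salt alone, so the genotypes changed places. Tmem144, a membrane protein, differed by 2.69 (adjusted p = 0.0801) and was well above background on 0 knockout arrays on salt alone. In the knockout it was at least 3.60-fold higher with infusion, with a fitted log2 response of 2.74 (adjusted p = 0.000112). In the wild type it was 1.03-fold higher (adjusted p = 0.938). Pappa, a protease that cleaves insulin-like growth factor binding proteins, differed by 2.04 (adjusted p = 0.0987). It read -0.81, -1.03 and -0.53 in infused knockout aortas, against -2.19, -2.10 and -2.03 on salt alone, and -0.24, -0.11 and -0.08 in infused wild-type aortas, against 0.81, 0.41 and 0.52 on salt alone. Bhlhe40, a repressor of the circadian clock, differed by 1.36 (adjusted p = 0.0751), Hs2st1, which sulfates heparan sulfate, by 1.19, Rhobtb2 by 1.13, and the kinesin Kif21a by 0.89. G530011O06Rik, Mymk and Inava differed by 2.15, 1.73 and 2.90, and by 0.24, 0.92 and 0.59 with dim values raised. None of them was well above background on any knockout array on salt alone, and G530011O06Rik on 0 infused wild-type arrays as well.

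On the lower side Rnf39, a RING finger protein, differed by -1.98 (adjusted p = 0.0503). It read -1.67, -1.49 and -1.17 in infused knockout aortas, against -0.73, -1.77 and -1.02 on salt alone, and -0.87, -0.50 and -0.90 in infused wild-type aortas, against -2.36, -2.52 and -2.52 on salt alone. Rnf39 thus rose in the wild type, 3.27-fold (adjusted p = 0.000205), while the knockout arrays overlapped. Amotl2, an angiomotin-family protein that restrains the coactivator YAP, differed by -1.39 (adjusted p = 0.0556). Amotl2 fell 1.45-fold in the knockout (adjusted p = 0.0406) and rose 1.80-fold in the wild type (adjusted p = 0.00267). Most of the others differed by -1.23 to -0.57: Rmrp, the RNA of a mitochondrial RNA-processing endoribonuclease, by -1.18, Map1lc3a, an autophagosome protein, by -1.23, Fam43a by -1.17, the deubiquitinase Usp47 by -0.74, the Sin3 corepressor subunit Suds3 by -0.75, Tax1bp3 by -0.67, the glycosyltransferase Mgat4a by -0.63, Gpbp1 by -0.60, the IkappaB kinase subunit Chuk by -0.59, and the heterochromatin protein Cbx5 by -0.57. Ccn2 and Bmp4, which complete the 15, are described with the matrix genes.

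By their medians, the 30 genes named for their p-values had a wider genotype gap without infusion than with it. Of the 15 with a higher knockout response, all 15 were called lower in the knockout than in the wild type on salt alone (23.5% of all genes were called lower there). With infusion, 4 were called higher in the knockout (10.6% of all genes) and 1 lower (18.1%). Their median knockout minus wild-type difference was -0.06 with infusion (range -0.80 to 1.30) and -1.52 on salt alone (range -3.69 to -0.66). Of the 15 with a lower knockout response, 0 were called higher and 2 lower with infusion, while 14 were called higher on salt alone (15.8% of all genes). Their median was -0.07 with infusion and 1.01 on salt alone. These counts use the arrays that chose the genes and describe them only.

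The arrays on water entered the choice only through the shared spread, the filter on dim probes and the choice of probe. They gave the same genes the following gaps. Of the 15 with a higher knockout response on salt, 1 was called higher (18.9%) and 9 lower (27.3%) in the knockout with infusion, and 0 higher (14.5%) and 13 lower (22.7%) without it. Their median gap was -0.53 with infusion and -0.86 without. Of the 15 with a lower knockout response, 4 were called higher with infusion and 10 without, with medians of 0.28 and 0.84. The gap was wider without infusion for 13 of the first 15 and for 11 of the other 15. How many of all genes had a wider gap without infusion was not counted. By calls, all genes went the other way on water. There 18.9% were called higher and 27.3% lower in the knockout with infusion, against 14.5% and 22.7% without it. No slide held both genotypes, so genotype and slide cannot be told apart in any of these gaps. Without infusion the gaps on salt and on water compare the same slides, 1 for the knockout and 3 for the wild type.

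**Figure D3:**
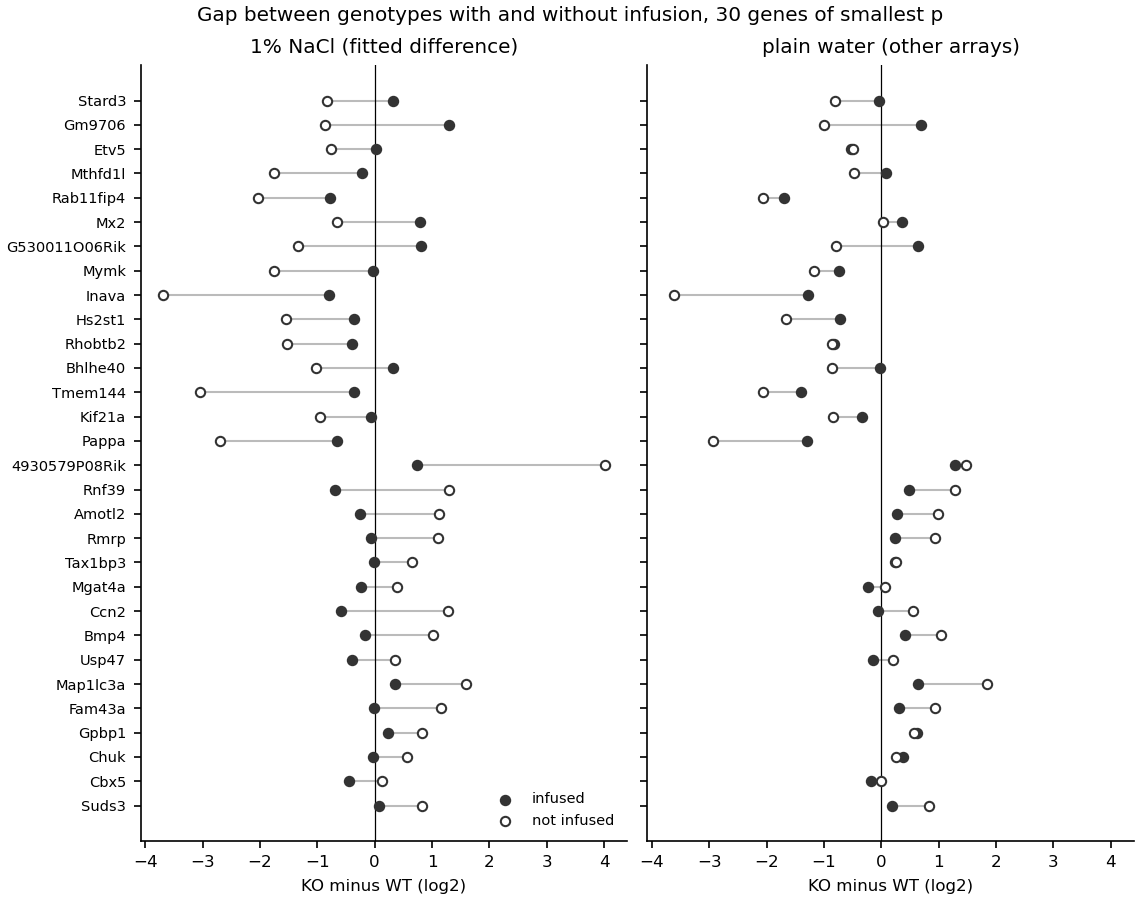
Knockout minus wild-type difference in level for the 15 genes of smallest p with a higher knockout response and the 15 with a lower one, in log2 units, with and without infusion, on salt and on water. On salt the gaps with infusion centre on -0.06 and -0.07, against -1.52 and 1.01 without it.

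Responses of the IL-17 pathway itself did not pass the test between the genotypes. Il6, a cytokine that IL-17 induces in many cells, read 1.04, 0.97 and 2.45 in infused knockout aortas, against -6.54, -6.60 and -5.77 on salt alone. It read 1.71, -0.23 and 3.87 in infused wild-type aortas, against -6.96, -5.20 and -6.5 on salt alone, where, as in the knockout, all 3 arrays were at background. With infusion Il6 was at least 61.4-fold higher in the knockout and at least 85-fold higher in the wild type. The fitted log2 responses were 7.79 in the knockout (adjusted p = 0.00225) and 8.01 in the wild type (adjusted p = 0.00145). The difference of the responses was -0.22 with a 95% interval of -4.99 to 4.55, too wide to say whether they match, and its sign turned under several settings. Ccl2, the monocyte chemoattractant, read 4.58, 4.2 and 4.76 in infused knockout aortas, against 0.01, -0.24 and 0.05 on salt alone, and 4.26, 3.46 and 4.94 in infused wild-type aortas, against 0.11, 0.08 and -0.88 on salt alone. It rose 23.8-fold in the knockout and 21.8-fold in the wild type, a difference of 0.12 (95% interval -1.74 to 1.98), whose sign turned when some single arrays were left out. Lcn2, an iron-scavenging protein of epithelia and neutrophils, rose 4.31-fold in the knockout (adjusted p = 0.0146) and was 2.65-fold higher in the wild type (adjusted p = 0.0737), a difference of 0.70 (95% interval -1.04 to 2.45).

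The receptor chains Il17ra and Il17rc differed by -0.43 (95% interval -2.09 to 1.23) and 0.25 (-0.06 to 0.56). Il17ra read -3.19, -3.09 and -2.30 in infused knockout aortas, against -3.57, -3.37 and -3.10 on salt alone, and -3.10, -3.41 and -3.02 in infused wild-type aortas, against -3.94, -4.04 and -4.30 on salt alone. Il17rc stayed between 3.67 and 4.15 on all 12 arrays. Of a list of 28 genes that IL-17 induces in other cells, 22 were measured, and 0 had a called genotype difference or an unadjusted p of 0.05. The list's median difference was -0.12 (all genes 0.01), with 10 positive and 12 negative, and it was 0.26 without infused wild-type replicate 3. In the knockout 8 of the 22 were called higher with infusion (13.3% of all genes) and 1 lower (11.9%), and in the wild type 9 higher (16.3%) and 1 lower (16.6%). The chemokine Ccl7 rose 16.2-fold in the knockout and 16.4-fold in the wild type, and Ptgs2, the inducible cyclooxygenase, 10.6-fold in the knockout and 10.5-fold in the wild type. The intervals of their differences were -1.78 to 1.75 for Ccl7 and -2.10 to 2.12 for Ptgs2. Lox, the enzyme that BAPN blocks, read 3.42, 3.21 and 3.66 in infused knockout aortas, against 1.45, 1.77 and 1.76 on salt alone, and 3.04, 2.90 and 3.54 in infused wild-type aortas, against 0.50, 0.65 and 0.44 on salt alone. It rose 3.41-fold in the knockout and 6.2-fold in the wild type, a difference of -0.86 (95% interval -1.78 to 0.06).

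Genes induced by interferon, to which Isg15 and Mx2 belong, had higher infusion responses in the knockout by their median. Type I interferon acts on these genes through transcription factors that bind their promoters at a repeat of GAAA. All 30 of the listed genes were measured and 0 had a called genotype difference, while 12 had an unadjusted p of 0.05 with a higher knockout response (5.27% of all genes) and 1 with a lower one (3.76%). The median difference of the list was 0.75, against 0.01 over all genes, with 24 of 30 positive. With infusion 22 of the 30 were called higher in the knockout (13.3%) and 11 in the wild type (16.3%), and the medians of the responses were 1.55 in the knockout and 0.64 in the wild type. The mean level of the list was 0.57, 0.70 and 1.15 at its lowest, median and highest in infused knockout aortas, against -0.82, -0.81 and -0.53 on salt alone. In infused wild-type aortas it was -0.38, -0.07 and 0.44, against -0.97, -0.86 and -0.70 on salt alone. The infused knockout arrays were above all others, and the 2 groups on salt alone overlapped. The list was drawn up with earlier results of these data known.

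Promoters of Isg15 and Ifit1 are shown for 2 members whose levels are given below. They are the 250 bases before the start of each gene, from RefSeq on GRCm38.p6, at chr4:156200819-156201068 on the minus strand for Isg15 and at chr19:34640639-34640888 on the plus strand for Ifit1. Capitals mark GAAA, any 2 bases and GAAA again on either strand, the repeat named above.
Isg15 promoter: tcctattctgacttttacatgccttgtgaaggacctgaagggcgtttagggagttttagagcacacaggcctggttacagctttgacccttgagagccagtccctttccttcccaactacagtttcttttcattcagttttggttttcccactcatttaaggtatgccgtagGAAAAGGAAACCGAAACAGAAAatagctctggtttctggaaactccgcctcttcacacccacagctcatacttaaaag
Ifit1 promoter: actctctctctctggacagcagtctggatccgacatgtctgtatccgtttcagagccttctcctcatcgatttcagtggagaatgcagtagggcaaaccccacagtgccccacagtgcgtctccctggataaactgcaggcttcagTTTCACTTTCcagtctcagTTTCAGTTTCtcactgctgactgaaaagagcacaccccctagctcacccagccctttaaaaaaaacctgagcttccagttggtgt
Isg15 holds 3 matches, each overlapping the next, from 78 to 57 bases before the start, and Ifit1 holds 2, at 104 to 95 and 85 to 76 bases. A promoter of this table was found for 22 of the 30 genes by symbol, and 13 of them hold the repeat (59.1%), against 936 of 27025 genes in the table (3.46%). The list consists of interferon-induced genes, so its share describes the list and is no result of these data. Among the 22, members with the repeat had genotype differences of both signs, and every member without it a positive one. A match describes the letters in this window and says nothing of binding.

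Isg15 read 3.68, 4.25 and 3.77 in infused knockout aortas, against 1.32, 1.01 and 1.11 on salt alone, and 2.12, 1.75 and 1.13 in infused wild-type aortas, against 0.46, 0.53 and 0.22 on salt alone. It rose 6.73-fold in the knockout (adjusted p = 8.80e-05) and 2.40-fold in the wild type (adjusted p = 0.0169), a difference of 1.49 (95% interval 0.36 to 2.61, adjusted p = 0.415). Usp18, which removes ISG15 from proteins, read 0.52, 1.40 and 0.83 in infused knockout aortas, against -0.96, -1.26 and -1.33 on salt alone, and -0.71, -0.58 and -0.92 in infused wild-type aortas, against -1.03, -0.95 and -1.36 on salt alone. All infused knockout arrays were above the other 9. Usp18 rose 4.29-fold in the knockout (adjusted p = 0.000109) and was 1.30-fold higher in the wild type (adjusted p = 0.340), a difference of 1.72 (95% interval 0.84 to 2.60, adjusted p = 0.192).

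Ifit1 and Ifit3, which bind viral RNA, differed by 1.59 (adjusted p = 0.248) and 2.11 (adjusted p = 0.217). Ifit1 read -0.68, 0.24 and -0.16 in infused knockout aortas, against -2.13, -2.55 and -2.42 on salt alone, and -1.38, -1.09 and -1.86 in infused wild-type aortas, against -2.05, -1.76 and -2.23 on salt alone. Ifit3 rose 3.29-fold in the knockout (adjusted p = 0.00401), and its infused wild-type array of replicate 3 read 0.24, against 1.48 and 1.80 for the other two. Xaf1, a pro-apoptotic protein, differed by 1.1 (adjusted p = 0.183), the antiviral enzyme Rsad2 by 1.48 and Oasl1 by 1.31. The chemokine Cxcl10 had a difference of -1.78 (95% interval -4.45 to 0.88), and -0.86 with dim values raised. Cxcl10 was well above background on 1 of 3 wild-type arrays on salt alone. It rose in both genotypes, 11-fold in the knockout and, with dim values raised, 19.9-fold in the wild type.

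On water the list had a median genotype difference of 0.81, with 28 of 30 positive. There 9 had an unadjusted p of 0.05 on the higher side (2.96% of all genes), and 0 were called. Those arrays entered the comparison on salt only through the shared spread, the filter on dim probes and the choice of probe. Their wild-type arrays were on slide 4 with infusion and on slide 3 without it. With slide as a block the median on salt was 1.38 and 11 genes were called higher (4.13% of all genes). Over the 26 other settings and left-out arrays the median stayed between 0.58 and 1.38. Macrophage and monocyte markers, 25 of 26 measured, had a mean level of 2.13 to 2.21 in infused knockout aortas, 1.21 to 1.36 on salt alone, 1.46 to 1.90 in infused wild-type aortas and 0.70 to 1.01 on salt alone. Their median genotype difference was -0.09, with 0 called and 0 at an unadjusted p of 0.05, and 1.04 with slide as a block. In whole aorta fewer cells of a type and less RNA per cell cannot be told apart, and the part of the cell types in the interferon genes was not tested.

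**Figure D4:**
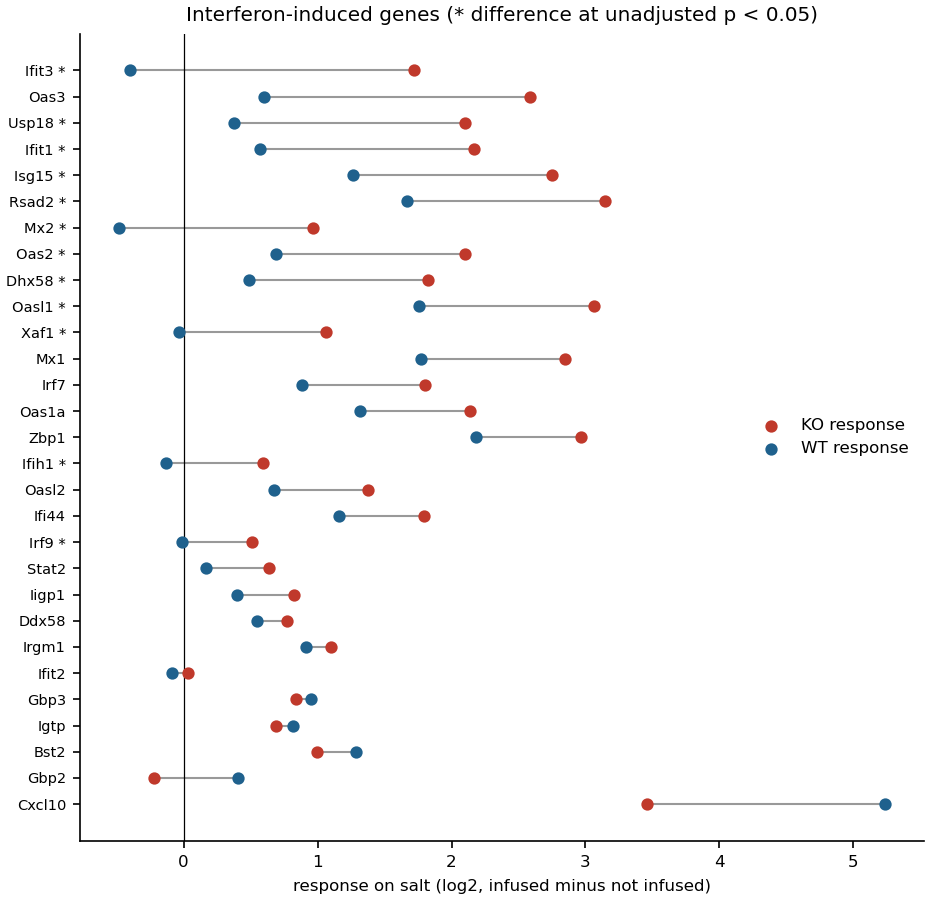
Infusion response on salt of the interferon-induced genes in the knockout and in the wild type, in log2 units, with 1 of the 30 not drawn. Over all 30 the knockout responses have a median of 1.55 and the wild-type responses 0.64, and 24 are higher in the knockout.

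Matricellular and TGF-beta genes, which relay growth factor and strain signals in the wall, held the differences of smallest p on the lower side among the lists. Of 35 listed, 34 were measured and 0 called, with 6 at an unadjusted p of 0.05 on the lower side (3.76% of all genes) and 2 on the higher (5.27%), and a median of -0.18. Ccn2, the connective tissue growth factor, read 8.07, 8.41 and 8.49 in infused knockout aortas, against 8.22, 8.37 and 8.28 on salt alone. It read 8.69, 8.98 and 9.04 in infused wild-type aortas, against 7.37, 6.62 and 7.04 on salt alone. The wild-type arrays on salt alone were the low ones. Ccn2 rose 3.72-fold in the wild type (adjusted p = 0.000139), and in the knockout it was 1.03-fold higher (adjusted p = 0.938), a difference of -1.86 (95% interval -2.68 to -1.04, adjusted p = 0.0910). Bmp4, a bone morphogenetic protein, read 5.46, 5.71 and 5.56 in infused knockout aortas, against 5.59, 4.92 and 5.5 on salt alone, and 5.76, 6.00 and 5.46 in infused wild-type aortas, against 4.41, 4.37 and 4.2 on salt alone. Its difference was -1.18 (adjusted p = 0.106).

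Thbs1, thrombospondin 1, which activates latent TGF-beta, rose in both genotypes. It read 4.55, 4.56 and 4.92 in infused knockout aortas, against 2.42, 1.71 and 2.31 on salt alone, and 4.74, 5.06 and 5.43 in infused wild-type aortas, against 0.59, 0.77 and 0.40 on salt alone. The infused groups overlapped while the wild type on salt alone was the lowest group, and the rise was 5.78-fold in the knockout and 22.5-fold in the wild type (difference -1.96, 95% interval -3.41 to -0.51, adjusted p = 0.409). Tgfb2 differed by -1.16 and Tgfb1 by 0.46. Spp1, osteopontin, rose 41.5-fold in the knockout and at least 40.4-fold in the wild type, and on salt alone it was well above background on 1 knockout array and 0 wild-type arrays. Of the 33 collagen and fibrillar matrix genes 15 were called higher with infusion in the knockout (13.3% of all genes) and 19 in the wild type (16.3%), and the median difference was -0.09. Of these 33, 0 had a called difference, with 2 at an unadjusted p of 0.05 on the lower side and 0 on the higher. Col1a1 differed by -0.46 (adjusted p = 0.394). The lowest of the list was Lum at -4.36, also the lowest of all genes tested. The Lum value depended on single arrays. It was -6.61 without infused knockout replicate 1 and -0.007 without infused knockout replicate 3. Of the 24 elastic fibre genes the median was also -0.09, Eln rose 3.18-fold in the knockout and 4.61-fold in the wild type (difference -0.54, 95% interval -1.21 to 0.14), and Loxl3, a lysyl oxidase relative, differed by 0.75 (adjusted p = 0.201).

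Of the immediate early genes, transcribed within minutes of a stimulus, 21 of 22 measured had a negative difference, 5 with an unadjusted p of 0.05 (3.76% of all genes), 0 called, median -0.48. The transcription factor Klf6 differed by -0.90, Atf3 by -2.65, the orphan receptor Nr4a1 by -1.72 and Myc by -1.46. One array stood apart: the mean level of the list was 2.37 on infused wild-type replicate 3, against 1.09 and 1.20 on the other infused wild-type arrays. Without it the median was -0.31, Atf3 differed by -1.74 and Nr4a1 by -1.02. On water the median of the list was 0.05, and with slide as a block on salt it was -1.18 with 6 genes called lower (4.25% of all genes). Endothelin 1 (Edn1), a vasoconstrictor peptide, read 1.07, 1.52 and 1.44 in infused knockout aortas, against 1.72, 0.69 and 1.41 on salt alone, and 1.97, 2.53 and 2.38 in infused wild-type aortas, against 0.35, -0.22 and 0.18 on salt alone. Edn1 rose 4.57-fold in the wild type (adjusted p = 0.00224) and was 1.05-fold higher in the knockout (adjusted p = 0.930), a difference of -2.12 (adjusted p = 0.335). Ptgir, the prostacyclin receptor, differed by 0.86. Among 20 measured genes of the osmotic response and sodium transport, Slc6a6, which carries taurine, differed by 0.79, and Slc5a3, which carries myo-inositol, and Nfat5, the transcription factor of the hypertonic response, each by -0.81. All had adjusted p-values of 0.288 or more.

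Of 18 genes of the circadian clock 0 had a called difference, with 2 at an unadjusted p of 0.05 on the higher side (5.27% of all genes) and 4 on the lower (3.76%). The median of the list was 0.39, and -0.15 without infused wild-type replicate 3. The activator Arntl read 1.76, 1.48 and 1.32 in infused knockout aortas, against 1.1, 1.76 and 1.22 on salt alone. It read -0.87, -1.17 and 1.34 in infused wild-type aortas, against -3.28, -2.76 and -3.52 on salt alone. The infused wild-type array at 1.34 was replicate 3, the one on slide 4, and the wild-type arrays on water without infusion read -0.54, -1.42 and -1.45. Arntl rose 7.73-fold in the wild type (adjusted p = 0.00124), and the genotype difference was -2.79 (adjusted p = 0.302). Without that array it was -2.0. Its partner Clock differed by -1.01, and by -0.80 without that array. Ciart, a clock repressor, was well above background on 1 infused knockout array, 1 knockout array on salt alone, 2 infused wild-type arrays and 3 wild-type arrays on salt alone, and its fitted difference of 3.56 was 2.17 with dim values raised and 2.05 without infused wild-type replicate 3. Dbp, a clock output, read 5.56, 5.97 and 2.45 in infused wild-type aortas, against 7.26, 7.22 and 7.31 on salt alone, the highest of the 4 groups. Its difference of 1.73 was 0.62 without infused wild-type replicate 3, the array at 2.45. In the knockout 1 of 18 clock genes was called higher with infusion (13.3% of all genes) and 5 lower (11.9%), and in the wild type 4 higher (16.3%) and 12 lower (16.6%). The hour of tissue collection was not given in the sources used here, and its part was not tested.

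Cell cycle genes rose with infusion in both genotypes. Of 33 measured mitosis genes 32 were called higher in the knockout (13.3% of all genes) and 33 in the wild type (16.3%), with median responses of 4.73 in the knockout and 4.0 in the wild type. Top2a, the mitotic topoisomerase, rose 40.2-fold in the knockout and 22.3-fold in the wild type (difference 0.85, 95% interval -0.95 to 2.65), and Mki67, the proliferation antigen, 27.5-fold in the knockout and 16-fold in the wild type. The median genotype difference was 0.64 with 30 of 33 positive and 0 called, and 0.24 without infused wild-type replicate 2. It was 3.43 with slide as a block, where 25 genes were called higher (4.13% of all genes), and -0.01 on water. Cytosolic ribosomal protein genes, among the brightest probes, had 30 of 30 differences below 0, with a median of -0.37 and 12 at an unadjusted p of 0.05 (3.76% of all genes), and 0.01 with slide as a block. Over all genes the median difference also moved with brightness, at 0.26 in the dimmest quartile of level and -0.11 in the brightest.

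Markers of other cells were described for the same arrays. Contractile smooth muscle genes had a mean level of 3.82 to 4.18 in infused knockout aortas, 4.51 to 4.65 on salt alone, 4.12 to 4.75 in infused wild-type aortas and 4.73 to 4.8 on salt alone, with a median genotype difference of -0.13 and 0 called. With slide as a block the median was -1.19, with 9 of 24 called lower (4.25% of all genes). All 11 measured B-cell and plasma-cell markers had a positive difference, median 0.95, with 2 at an unadjusted p of 0.05 (5.27% of all genes). The median was 0.47 with dim values raised, and on water it was -0.16 with 3 of 11 positive. Their mean level was -3.65 to -3.18 in infused knockout aortas, -3.30 to -2.46 on salt alone, -2.95 to -2.33 in infused wild-type aortas and -1.79 to -1.27 on salt alone. T-cell markers had a median of 0.87, or 0.50 with dim values raised and 0.46 without infused wild-type replicate 3. The T-cell median was -0.49 on water, with 4 of 18 positive, and -0.17 on salt with slide as a block. The wild-type arrays on salt alone held the highest levels of both lymphocyte lists without overlap. Erythroid markers had a median difference of 2.06 on 6 genes, with infused wild-type arrays from 0.18 to 4.38, and mesothelial and epithelial markers -1.20, with infused knockout arrays from -2.99 to -0.44. The erythroid median was 0.34 without infused wild-type replicate 3 and -1.27 with slide as a block. The mesothelial and epithelial median was -0.40 without infused knockout replicate 2 and 1.18 on water, with 16 of 16 positive. For these lists the spread within a group was wide, 0 genes were called, and their part in the differences above was not tested.

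**Figure D5:**
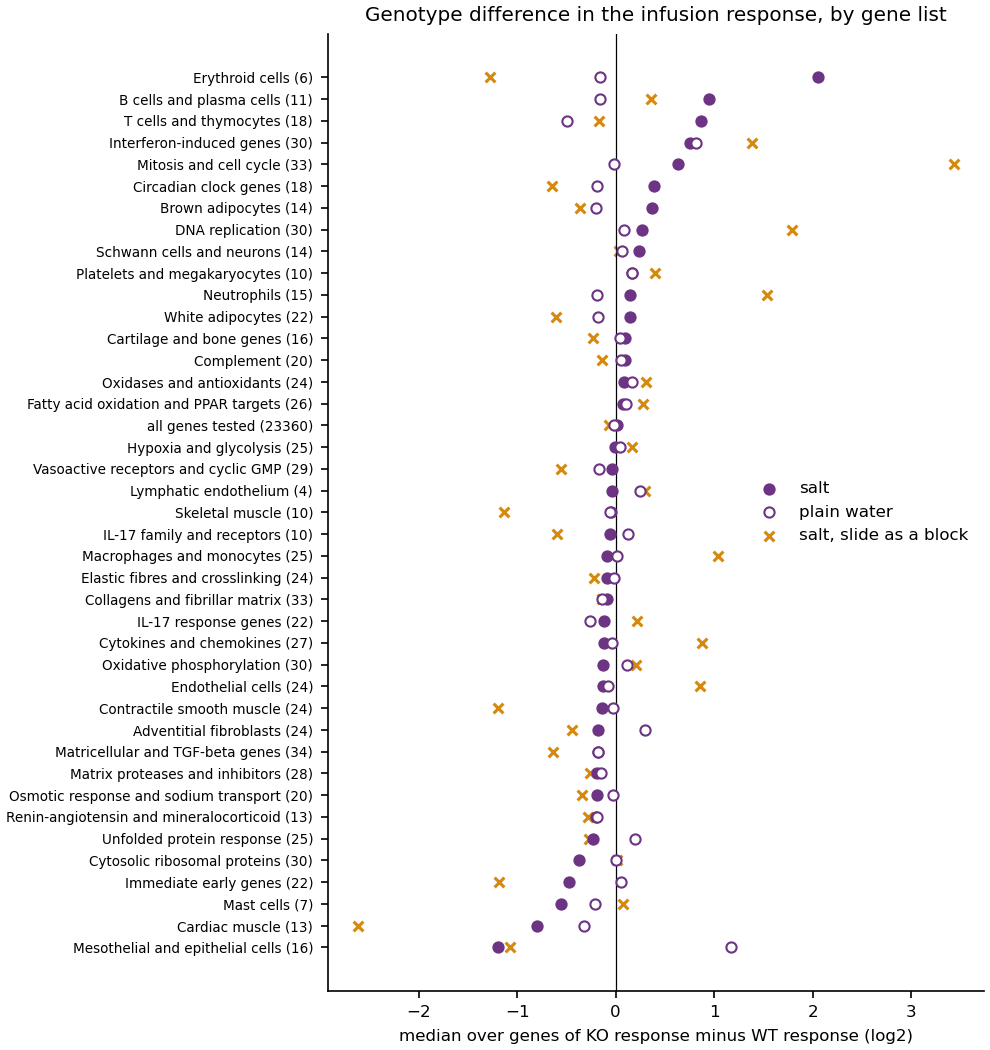
Median genotype difference in the infusion response of each gene list, in log2 units, on salt, on water and on salt with slide as a block. Interferon-induced genes are positive in all 3, at 0.75, 0.81 and 1.38. So are some other lists, such as DNA replication at 0.27, 0.09 and 1.79, while several lists change sign.

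The arrays on water addressed the same question without sharing a sample with the comparison on salt, but they shared slides with it. Knockout arrays without infusion were all on slide 1 and wild-type arrays without infusion all on slide 3, on salt and on water alike. The genotype gap without infusion thus compares the same slides in both, so the water arrays are not independent in that respect. On water the infused wild-type arrays were all on slide 4 and those without infusion all on slide 3. The wild-type response on water and the change of slide therefore cannot be told apart within these groups. There 0 genes had a genotype difference in the infusion response by limma with Benjamini-Hochberg adjustment, with a lowest adjusted p of 0.2136 and 1520 genes at an unadjusted p of 0.05 (6.51%). Without replicate 3 of infusion on water in the knockout, the array that lay apart, 63 genes passed, and without the same replicate in the wild type 15 did. Of the 14 genes called on salt 13 had the same sign on water, where 51.76% of all genes did. Stard3 differed there by 0.77 (unadjusted p = 0.000148), Gm9706 by 1.68, Mthfd1l by 0.56 and Rab11fip4 by 0.37. The difference between salt and water was called for 0 genes, with a lowest adjusted p of 0.7028 and 1279 genes at an unadjusted p of 0.05 (5.48%), so no gene's genotype difference was shown to depend on salt. For Etv5 it was 0.84 (standard error 0.19, unadjusted p = 0.000300) and for 4930579P08Rik -3.07 (standard error 0.73, unadjusted p = 0.000471).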

How the data were processed

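Total RNA from 24 aortas or pools of them was labelled with Cy3 and read on 1-colour Agilent arrays. The deposited scanner files hold the intensity of each spot, background-subtracted by Agilent Feature Extraction 10.7.1.1 per the file headers (9.5.1.1 per the submitters' processing notes). The authors' deposited table of processed intensities, taken to log2, served as an alternative. No genome build is given in the labels, and probe positions are printed in mm9 as the files give them. From the intensities, log2 processed signal minus each array's 75th percentile was taken over 59305 non-control spots per array, dropping 2910 outlier spots, and averaged per probe (55681 probes). A probe had to be well above background on each of the 3 arrays in 1 or more groups (33377 were), and the brightest per gene stood for it, giving 23360 genes. Names came from RefSeq through the accession for 27318 probes and from the file's symbol for 4080; 24283 kept the file's name. Of the genes tested, 7309 have only a database name.

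All 24 arrays in 8 groups were fitted with limma 3.58.1 in R 4.3.3, with two-sided moderated tests and Benjamini-Hochberg adjustment over all genes at a threshold of 0.05. Confidence intervals are at 95%. No probe was saturated, 38 genes lacked a value on an array, and replicates within a group correlated at 0.9713 to 0.9948 with 0 identical pairs. The p-values measure the spread between arrays. Named were 8 genes of the pathway and, in each direction, the 15 genes with a RefSeq symbol of largest difference past the threshold or, where fewer passed, of smallest p, if detected above background throughout 2 or more of the 4 groups; genes of the lists named beside them were picked after their values were seen. The genes, gene lists and tests were chosen with earlier results of these data known. Alternatives changed the normalization, background correction, source of values, filter, probe rule, variance prior, slide, replicate block, samples fitted and left-out array; the dim-value floor, the fit without the replicate 3 arrays of infusion on water and the wild-type slide block were added after seeing the data. The steps were tested on simulated data. Values of 1 gene are not reported here. Replicate numbers did not pair the samples: of 18 same-numbered pairs of arrays from different groups, 2 deviated together with a correlation over 0.1 (range -0.21 to 0.259). Replicate numbers of the wild-type arrays on salt alone follow the source names, since the titles number them differently. Figures were drawn with matplotlib 3.10.9 in Python 3.11.15.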

Additional observations from a re-analysis of the deposited data

Results flagged for a closer look

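The response to infusion on salt differed between the genotypes, by a test of the difference itself, for 14 genes at an adjusted p of 0.05 by limma with Benjamini-Hochberg adjustment. Stard3 differed by 1.15, Gm9706 by 2.17, Etv5 by 0.80, Mthfd1l by 1.54 and Rab11fip4 by 1.27 (log2 knockout response minus wild-type response), and 4930579P08Rik by -3.27. All 6 have a RefSeq symbol and met the detection requirement in at least 2 groups. Gm9706 shares probe bases with Isg15, and Rab11fip4 was not well above background on any knockout array on salt alone. Within the 4 groups the knockout response cannot be told apart from the change of slide, so neither can these differences. No explanation was tested.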

How the results depend on the processing

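The count of genes whose infusion response on salt differed between the genotypes, 14 as reported, was 5 with normexp background correction (5 higher, 0 lower), 23 with no filter on dim probes, 22 with the mean of a gene's probes, 1957 with slide as a block, 23 with slide as a random block, 80 with only the groups compared in the fit, 162 without the replicate 3 arrays of infusion on water, and 129 with slide as a block in the wild type on the salt arrays alone. Quantile normalization gave 12 genes, 9 higher and 3 lower. The replicate block gave 17, and the pairing of replicate numbers is not borne out by the data. Left-out arrays gave 0 to 24. On water the count of 0 became 1 with no filter, 46 with slide as a block and 2 with dim values raised, and 0 to 63 with arrays left out. The salt minus water count of 0 became 30 with slide as a block, and 0 to 2 with arrays left out; a fit of only the groups compared is the reported one there. The knockout response gave 3597 to 4978 genes with arrays left out and the wild-type response 4436 to 8264, and the knockout response gave 2974 higher and 4427 lower with normexp. The Il6 difference turned to 0.11 with normexp, 1.89 with slide as a block, 0.95 with slide as a random block, 0.83 with the wild-type slide block, and ranged from -1.23 to 0.83 with single arrays left out, being above 0 without 5 of them (infused knockout 1 or 2, knockout 3 on salt alone, infused wild-type 3, wild-type 1 on salt alone). Il17rc turned to -0.049 with slide as a block, and Ccl2, from -0.26 to 0.48 with arrays left out, was below 0 without infused wild-type 2 or wild-type 1 or 2 on salt alone. The cause was not tested. Of 26 other settings Stard3 stayed past the threshold in 25, 4930579P08Rik in 22, Etv5 in 16, Gm9706 in 15 and Mthfd1l in 14, and Rab11fip4 in 9 of 25.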
